A study of Homo sapiens with 28 samples.

Results

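The genes described here are 8 actin and focal adhesion genes: INF2 (ENSG00000203485), DIAPH1 (ENSG00000131504), ACTN4 (ENSG00000130402), ACTN1 (ENSG00000072110), FLNA (ENSG00000196924), ADD1 (ENSG00000087274), PTK2B (ENSG00000120899) and GIT2 (ENSG00000139436). They were chosen by name, several of them for exons that change in all knockdown comparisons, so the knockdown values below are a description of how they were chosen and carry no p-value. The 8 genes were taken from 22391 genes with expression values by Ensembl gene identifier, and they held 69 of 100814 splicing events. The events fell into 13 junction clusters, with 25 cassette exon events, 29 intron retention events and 15 of other or unstated kinds.

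RNA-seq was done on 28 libraries of human MLL-rearranged leukemia cell lines in 9 groups. MOLM13 cells carry the MLL-AF9 fusion and MV4;11 cells the MLL-AF4 fusion, and all cells received a lentiviral hairpin, either the non-targeting shNT or a hairpin against MBNL1, numbered 64 or 65. MOLM13 cells had hairpin 64 or shNT after selection with puromycin for 72 h (3 libraries each, day 4 in the study's text), hairpin 65 (4 libraries) with a second set of shNT (3), and hairpin 64 or shNT at day 12 (3 each). MV4;11 cells had shNT, hairpin 64 or hairpin 65 (3 each), and both hairpins share the same controls. Each hairpin is 1 sequence and each fusion is represented by 1 line. Hairpin and knockdown strength therefore cannot be told apart, nor can fusion, line and culture medium. The day of collection is not given for the hairpin 65, second-set shNT and MV4;11 libraries. Only the day 12 libraries are described as biological replicates, so elsewhere the p-values measure the spread between libraries, which may be technical.

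MBNL1, the targeted RNA-binding splicing regulator, was lower in every knockdown library than in its controls. With hairpin 64 it stood at 14.4% of control in MOLM13 at day 4, 16.7% at day 12 and 16.6% in MV4;11, and with hairpin 65 at 67.3% in MOLM13 and 53.3% in MV4;11. Of 12 myeloid leukemia markers, 11 had a median of at least 1 RPKM, while CEBPA stayed at the value given to genes without reads. Of 3 T cell markers, CD3D had a median of 2.73 RPKM (up to 12.2) and CD3E and CD2 did not reach a median of 1 RPKM, nor did any of the 12 B cell, erythroid and megakaryocyte, or epithelial and stromal markers. The steps between low values gave a relative depth that varied 3.16-fold over the libraries, and the third day-4 libraries of shNT and hairpin 64 were among the shallowest. Both also stood apart in FLNA (431 and 516 RPKM against 131 to 239 in the other 4 day-4 libraries) and in INF2 (21.5 and 20.4 RPKM against 5.70 to 10.5). The third MV4;11 shNT library stood apart from the other MV4;11 shNT libraries in FLNA (323 RPKM against 223 in both), INF2 (6.06 against 2.99 and 3.28) and DIAPH1 (59.6 against 90.1 and 81.1). Absolute depth and the junction reads behind each event are unknown. In bulk RNA, fewer cells that express a gene and less RNA per cell cannot be told apart.

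The actin cytoskeleton is built by formins, which nucleate and elongate filaments, and is shaped by crosslinkers such as alpha-actinins and filamins. Adducin caps filament ends and ties them to the spectrin skeleton under the membrane. Focal adhesions join filaments to integrins, and kinases and scaffold proteins there relay signals. MBNL proteins bind short motifs with a pyrimidine on each side of GC in pre-mRNA and move exons in or out of the mature transcript.

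The exons that carry the splicing differences are shown first, each with 100 bases of intron on either side, read 5′ to 3′ along the transcript from the GRCh37 genome. The MBNL motif has 4 forms, which are CGCC with its variant CGCT, as well as TGCC with its variant TGCT, and all are in capitals wherever they occur on the transcript strand, including matches that share bases. In each run the exon begins at base 101.

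INF2 exon E21.1 (chr14:105181521-105181777, plus strand, exon of 57 bases): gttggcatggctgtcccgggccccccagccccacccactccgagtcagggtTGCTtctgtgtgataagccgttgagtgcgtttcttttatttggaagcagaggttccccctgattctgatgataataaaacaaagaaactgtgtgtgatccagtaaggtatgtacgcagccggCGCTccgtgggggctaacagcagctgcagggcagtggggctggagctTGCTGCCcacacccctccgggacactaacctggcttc
ACTN4 exon E9 (chr19:39200797-39201082, plus strand, exon of 86 bases): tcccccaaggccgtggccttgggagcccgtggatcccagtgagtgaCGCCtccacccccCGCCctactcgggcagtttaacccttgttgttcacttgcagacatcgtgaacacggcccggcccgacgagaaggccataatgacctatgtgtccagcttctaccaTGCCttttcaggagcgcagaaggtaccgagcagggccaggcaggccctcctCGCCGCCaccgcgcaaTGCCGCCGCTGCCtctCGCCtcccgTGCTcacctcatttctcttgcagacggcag
ACTN4 exon E10 (chr19:39201816-39202101, plus strand, exon of 86 bases): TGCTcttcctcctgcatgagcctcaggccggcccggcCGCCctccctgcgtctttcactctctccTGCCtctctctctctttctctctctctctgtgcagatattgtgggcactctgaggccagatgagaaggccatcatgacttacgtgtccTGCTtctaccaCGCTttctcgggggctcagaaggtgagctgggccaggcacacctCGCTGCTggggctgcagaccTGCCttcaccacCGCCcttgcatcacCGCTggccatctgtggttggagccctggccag
FLNA exon E29.1 (chrX:153585519-153585742, minus strand, exon of 24 bases): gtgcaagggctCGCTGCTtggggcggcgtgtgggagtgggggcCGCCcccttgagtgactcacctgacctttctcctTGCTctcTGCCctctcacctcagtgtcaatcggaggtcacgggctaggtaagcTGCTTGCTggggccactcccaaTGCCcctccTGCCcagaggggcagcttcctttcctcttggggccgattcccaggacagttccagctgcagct
GIT2 exon E19.1 (chr12:110382965-110383254, minus strand, exon of 90 bases): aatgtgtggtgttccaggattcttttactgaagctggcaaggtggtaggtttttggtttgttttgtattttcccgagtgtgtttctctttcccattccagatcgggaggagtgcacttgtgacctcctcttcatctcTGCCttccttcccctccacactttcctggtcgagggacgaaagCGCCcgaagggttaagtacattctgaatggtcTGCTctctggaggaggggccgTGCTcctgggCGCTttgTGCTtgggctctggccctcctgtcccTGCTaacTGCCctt
DIAPH1 exon E2.1 (chr5:140967691-140967917, minus strand, exon of 27 bases): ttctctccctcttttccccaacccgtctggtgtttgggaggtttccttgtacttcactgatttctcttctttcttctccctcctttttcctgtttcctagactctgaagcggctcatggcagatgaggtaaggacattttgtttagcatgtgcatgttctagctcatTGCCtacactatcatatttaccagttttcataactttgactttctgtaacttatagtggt

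The INF2 exon holds a stop codon that ends at exon base 56 in 6 of the 11 annotated transcripts with the exon, and in those the reading frame ends there. The ACTN4 exons are alternatives of the same length, and 65 of their 86 bases are identical (75.6%). The FLNA, GIT2 and DIAPH1 exons are coding in annotated transcripts and have lengths divisible by 3, as does exon E36.1 of PTK2B (chr8:27303311-27303436, plus strand, 126 bases), whose sequence is not shown. Downstream of the exon the motif occurred 8 times for ACTN4 E9, 6 for GIT2, 5 for ACTN4 E10, 4 for FLNA, 3 each for INF2 and PTK2B and once for DIAPH1. Among 9141 annotated cassette exons of the splicing file, 64.2% had the motif at least once in the same downstream 100 bases. It occurred at least 3 times in 13.0%, at least 4 in 4.92%, at least 5 in 2.13%, at least 6 in 0.930% and at least 8 in 0.142%. Upstream the motif occurred 6 times for PTK2B, 5 for FLNA, 3 for ACTN4 E10, 2 for ACTN4 E9 and once for INF2, and no match was found for GIT2 or DIAPH1. At least 6 upstream matches were present in 0.591% of the cassette exons and at least 5 in 1.93%. At least 3 were present in 13.7%, at least 2 in 32.4% and at least 1 in 64.9%. These matches are a description of the letters in the windows.

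PSI, the percent of the junction reads counted for an event that use the examined junction, was tested for every event in limma. A call required a difference of over 10 percentage points together with an unadjusted p no higher than 0.01. Skipping and inclusion values of an exon need not be complements, so neither can be derived from the other. In the first day-4 shNT library, INF2 exon E21.1 was joined to E20.1 in 75.6% and skipped in 13.2%. With hairpin 64, 20 of 69 tested events were called in MOLM13 at day 4 (all events, 1.73%), 19 of 68 at day 12 (all events, 2.34%) and 19 of 68 in MV4;11 (all events, 1.64%). With hairpin 65, 11 of 68 events were called in MOLM13 (all events, 1.28%) and 11 of 68 in MV4;11 (all events, 0.866%). These counts follow from how the genes were chosen. In all 5 comparisons 9 of the 68 events tested in each were called in the same direction, against 43 of 66277 events over all genes, which is 0.0649%. The 9 belong to INF2, ACTN4, GIT2 and PTK2B, and within each gene they share a junction cluster. In all of these counts the skipping and inclusion junctions of an exon are separate events, so a few exons give many calls.

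**Figure D1:**
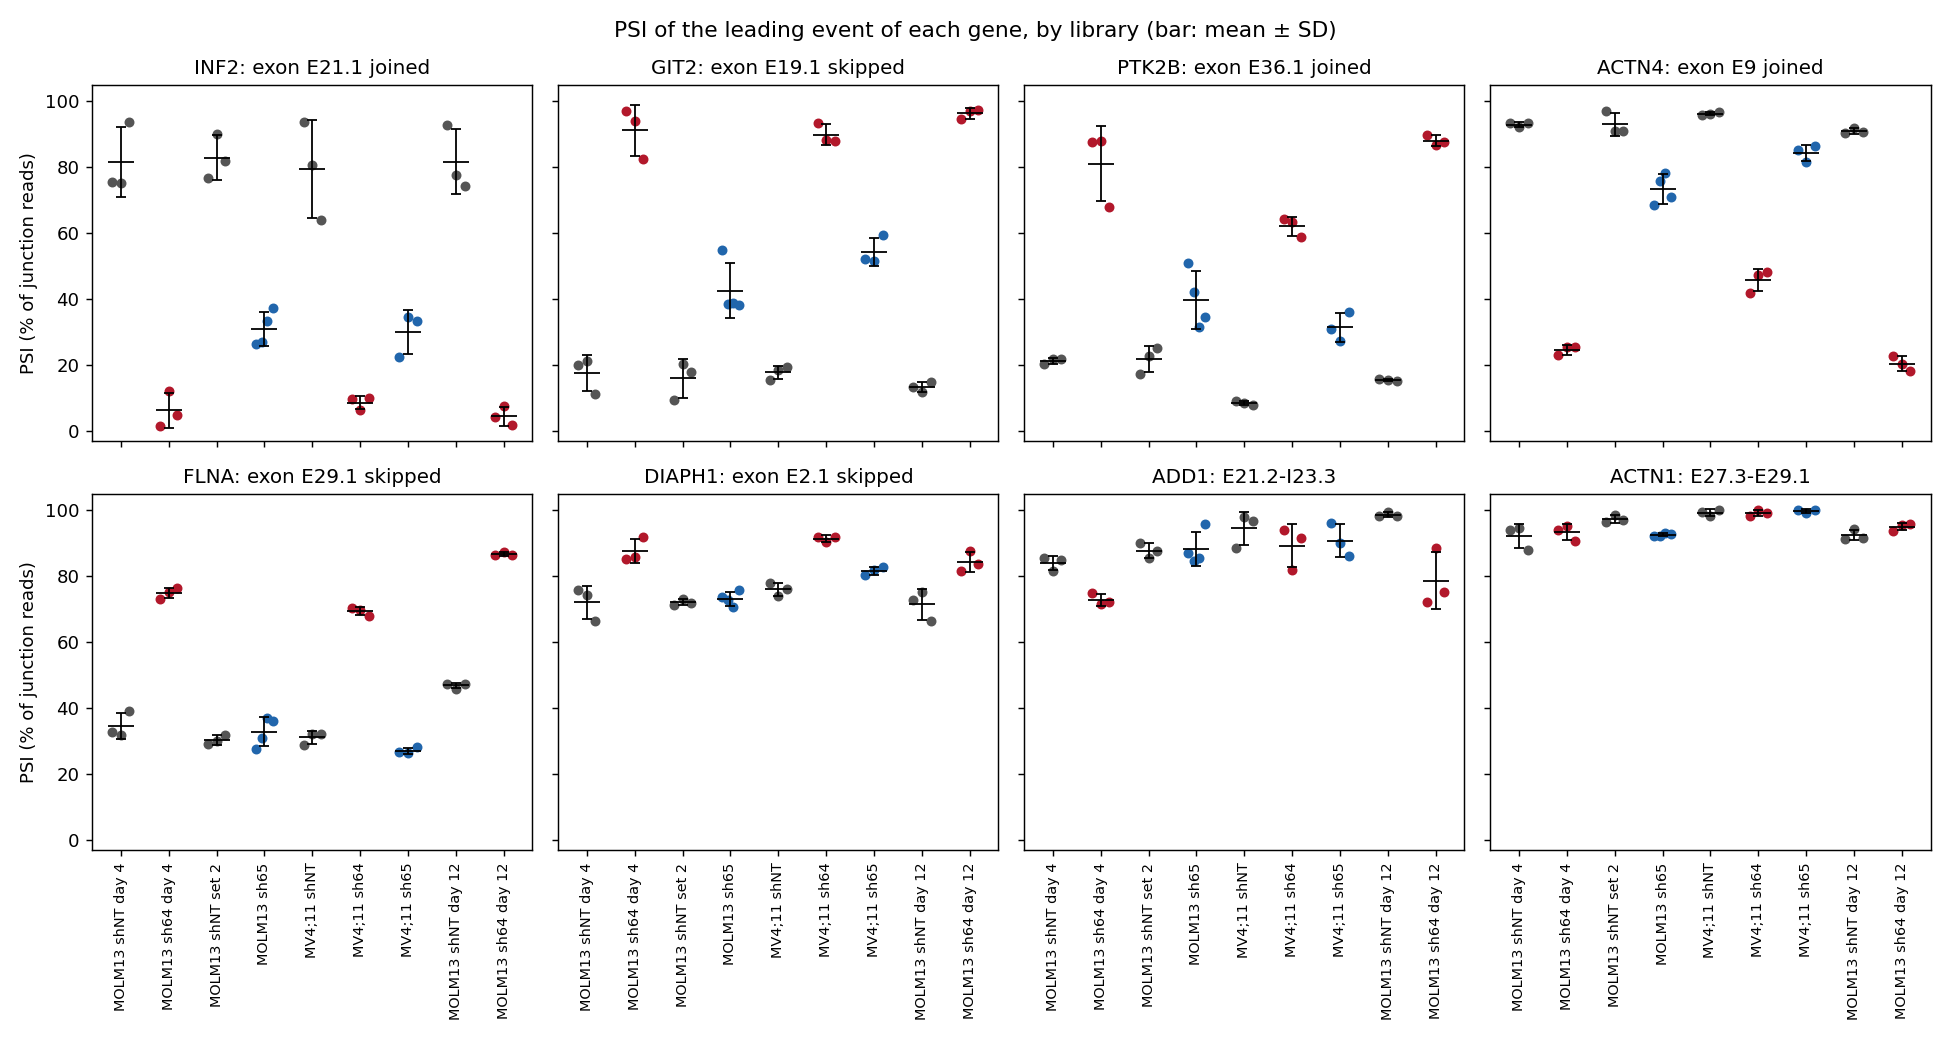
PSI in percent (vertical axis) of the event with the largest mean difference in each of the 8 genes, for all 28 libraries in 9 groups (grey shNT, red hairpin 64, blue hairpin 65; bars mean ± SD). INF2, GIT2 and ACTN4 were called with both hairpins in both lines and FLNA with hairpin 64 only, and ACTN1 lies between 88.0 and 100% in every library.

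Among the formins, INF2 nucleates and severs filaments, and its known forms differ at the C-terminus, where the form that ends in the alternative exon carries a lipid attachment signal and sits at the endoplasmic reticulum. Exon E21.1 was joined to E20.1 in 75.6, 75.3 and 93.9% of junction reads in the 3 day-4 shNT libraries and in 1.75, 12.2 and 5.08% with hairpin 64. In the second shNT set the values were 76.7, 90.2 and 82.0%, and in the 4 libraries of hairpin 65 they were 26.5, 27.2, 33.3 and 37.3%. No knockdown library reached its controls, and the hairpin 65 libraries lay between the others. In MV4;11 shNT gave 93.8, 80.6 and 64.2%, hairpin 64 gave 9.80, 6.45 and 10.0%, and hairpin 65 gave 22.5, 34.8 and 33.3%. At day 12 shNT gave 92.9, 77.7 and 74.5% and hairpin 64 gave 4.30, 7.62 and 1.89%. The differences from shNT were -75.2 points (SE 6.53) and -77.1 (SE 5.62) with hairpin 64 at day 4 and day 12 in MOLM13, -70.8 (SE 8.24) in MV4;11, and -51.9 (SE 4.30) and -49.3 (SE 8.96) with hairpin 65 in MOLM13 and MV4;11.

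DIAPH1 is the formin mDia1, which elongates unbranched filaments. Its 27-base exon E2.1 was skipped in 75.7, 74.2 and 66.2% of the junction reads in day-4 shNT and in 85.2, 85.8 and 91.9% with hairpin 64, with no overlap. In MV4;11 shNT gave 77.9, 73.9 and 76.1%, hairpin 64 gave 91.9, 90.3 and 91.9%, and hairpin 65 gave 80.2, 81.7 and 82.6%. At day 12 shNT gave 72.7, 75.3 and 66.3% and hairpin 64 gave 81.4, 87.5 and 83.7%, and in MOLM13 with hairpin 65 the values (70.6 to 75.7%) overlapped the controls (71.3 to 73.0%). Skipping was called with hairpin 64 at day 4 and in MV4;11 and in none of the other 3 comparisons. The day-4 call was lost when same-numbered libraries were blocked, with the difference unchanged at 15.6 points, and when any 1 of the 6 day-4 libraries was left out (12.7 to 17.4 points). The other 8 DIAPH1 events, in the exons E12 to E27, moved by 2.31 points or less on average.

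ACTN4 and ACTN1 are alpha-actinins, which crosslink filaments and tie them to adhesions. ACTN4 has a pair of mutually exclusive exons, E9 and E10, and shNT libraries used E9. The junction from E9 to E12.1 took 93.5, 92.1 and 93.3% in day-4 shNT and 23.0, 25.6 and 25.5% with hairpin 64. At day 12 the values were 90.5, 91.9 and 90.7% against 22.8, 20.5 and 18.3%. In MV4;11 they were 95.8, 96.3 and 96.7% with shNT, 42.1, 47.5 and 48.2% with hairpin 64 and 85.4, 81.8 and 86.4% with hairpin 65, so the hairpin 65 libraries lay between the others without overlap. In MOLM13 with hairpin 65 the values were 68.6, 75.8, 78.3 and 71.0% against 97.1, 91.0 and 90.9%. The reverse junction, from E10 to E12.1, averaged 3.52 ± 0.643% in day-4 shNT and 47.5 ± 3.73% with hairpin 64, and 1.47 ± 0.0993% and 34.2 ± 2.23% in MV4;11 (SD, n = 3 each). ACTN1, the close relative, had 3 intron retention events. None was called in any comparison, and the most variable, E27.3-E29.1, averaged between 92.1% and 99.7% in the 9 groups.

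FLNA is filamin A, which crosslinks filaments into networks and binds integrins. Its 24-base exon E29.1 was skipped in 32.7, 31.7 and 39.0% of junction reads in day-4 shNT and in 73.1, 75.1 and 76.3% with hairpin 64. In MV4;11 shNT gave 28.9, 32.2 and 32.2%, hairpin 64 gave 70.3, 69.8 and 68.0%, and hairpin 65 gave 26.8, 26.2 and 28.1%. Hairpin 65 libraries lay slightly below their controls there (difference -4.07 points, SE 1.18, not called). In MOLM13 hairpin 65 gave 27.6, 30.9, 37.04 and 35.9% against 29.08, 29.97 and 31.9% in shNT. At day 12 shNT gave 47.4, 45.9 and 47.3%, above all other controls, and hairpin 64 gave 86.3, 87.2 and 86.2%. Of 14 FLNA events, 3 were called with hairpin 64 at day 4, 3 in MV4;11 and 4 at day 12, and none with hairpin 65 in either line. ADD1, alpha-adducin, had 2 events. Its E21.2-I23.3 junction was called only at day 4, at 85.5, 81.4 and 84.8% in shNT and 74.7, 71.4 and 72.0% with hairpin 64. At day 12 it stood at 98.2, 99.5 and 98.1% against 72.2, 88.5 and 75.2%, which gave no call (difference -19.9 points, SE 4.77).

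PTK2B, known as PYK2, is a kinase of the focal adhesion kinase family, and its hematopoietic form is known to lack a stretch of the protein. Exon E36.1 was joined to E37.2 in 20.3, 21.8 and 22.0% of junction reads in day-4 shNT and in 87.6, 88.0 and 67.9% with hairpin 64. At day 12 the values were 15.8, 15.5 and 15.2% against 89.9, 86.9 and 87.6%. In MV4;11 they were 9.33, 8.65 and 7.87% with shNT, 64.3, 63.4 and 58.9% with hairpin 64 and 30.9, 27.4 and 36.3% with hairpin 65. In MOLM13 with hairpin 65 the values were 51.2, 42.2, 31.5 and 34.7% against 17.5, 23.0 and 25.2%. Knockdown libraries were above all of their controls in each comparison, although for this junction hairpin 65 in MOLM13 gave no call (difference 18.01 points, SE 5.29). The junction that skips the exon, E35.2-E37.2, was called lower in all 5 comparisons, and with hairpin 65 in MOLM13 it took 35.0, 43.7, 51.5 and 47.4% against 70.6, 63.03 and 62.5% (difference -21.0 points, SE 4.51). In the called comparisons this exon moved towards inclusion and the INF2 exon towards skipping. The remaining 14 PTK2B events gave no call in the 5 comparisons, with mean absolute differences of up to 16.0 points.

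GIT2 is a scaffold and GTPase-activating protein for ARF proteins that is brought to focal adhesions through paxillin. Skipping of exon E19.1 took 20, 21.4 and 11.3% in day-4 shNT and 97.0, 94.1 and 82.6% with hairpin 64. At day 12 it took 13.4, 11.9 and 14.8% against 94.6, 97.1 and 97.5%. In MV4;11 shNT gave 15.6, 18.6 and 19.4%, hairpin 64 gave 93.5, 88.4 and 87.9%, and hairpin 65 gave 52.1, 51.5 and 59.4%. In MOLM13 hairpin 65 gave 55.1, 38.6, 38.8 and 38.4% against 9.52, 20.5 and 18.1%. The second change in GIT2 was at the alternative acceptor E18.1, whose share fell from 43.8 ± 5.73% to 16.0 ± 0.805% at day 4 and from 43.6 ± 2.64% to 12.4 ± 1.19% in MV4;11 with hairpin 64, and stood at 23.4 ± 0.258% there with hairpin 65 (SD, n = 3 each). The other 10 GIT2 events gave no call.

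**Figure D2:**
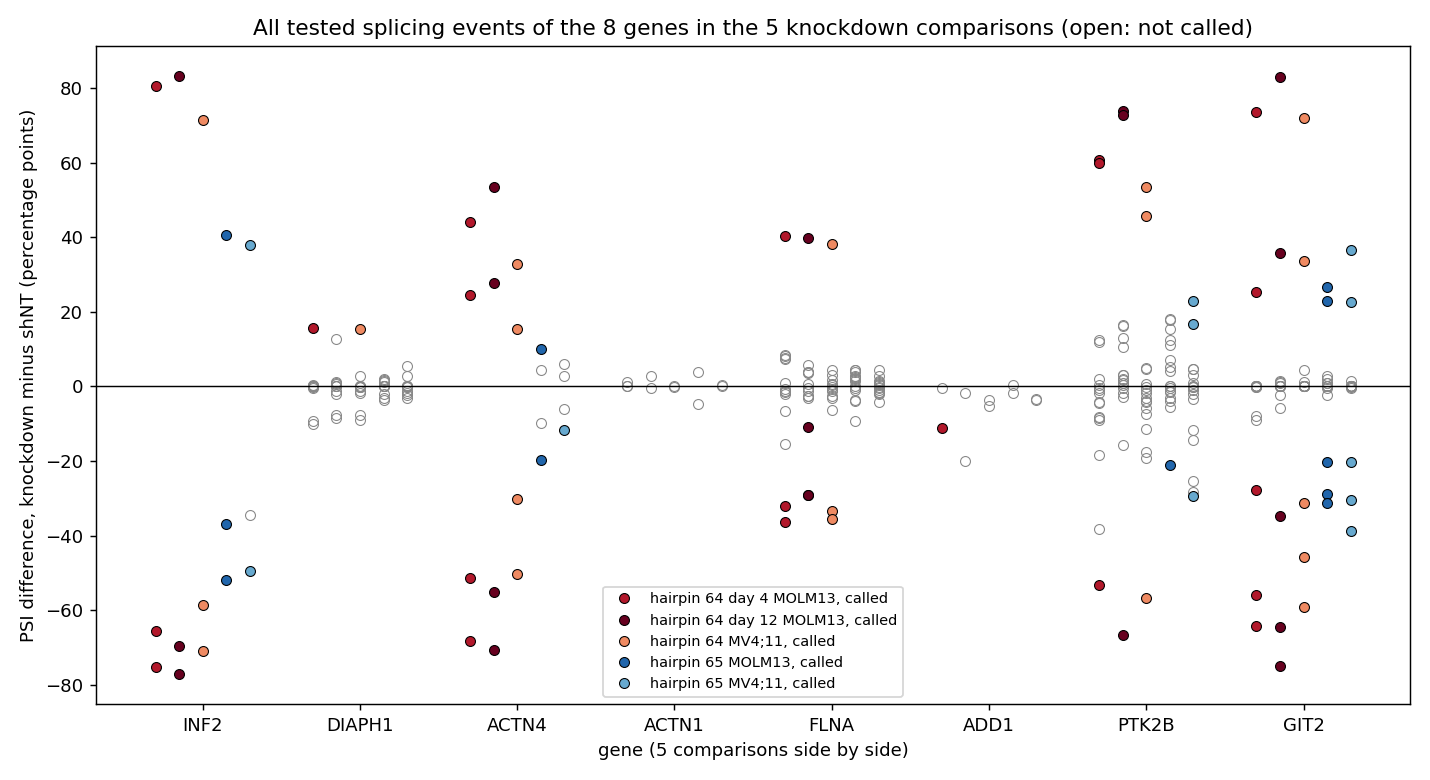
Difference in PSI between knockdown and shNT in percentage points (vertical axis) for all tested events of the 8 genes, with the 5 comparisons side by side within each gene (filled, called; open, not called). INF2, ACTN4, PTK2B and GIT2 hold events that are called with both hairpins, FLNA only with hairpin 64, and ACTN1 none.

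The order of the groups was alike for the INF2, GIT2 and ACTN4 events, with shNT at one end, hairpin 65 between and hairpin 64 at the other. Among the 4 shNT groups the means of the INF2 event (79.5 to 83.0%) differed by less than the spread of each group. Group mean MBNL1 was 3.23 to 4.40 RPKM with hairpin 64, 12.0 to 12.7 RPKM with hairpin 65 and 18.9 to 26.4 RPKM with shNT.

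**Figure D3:**
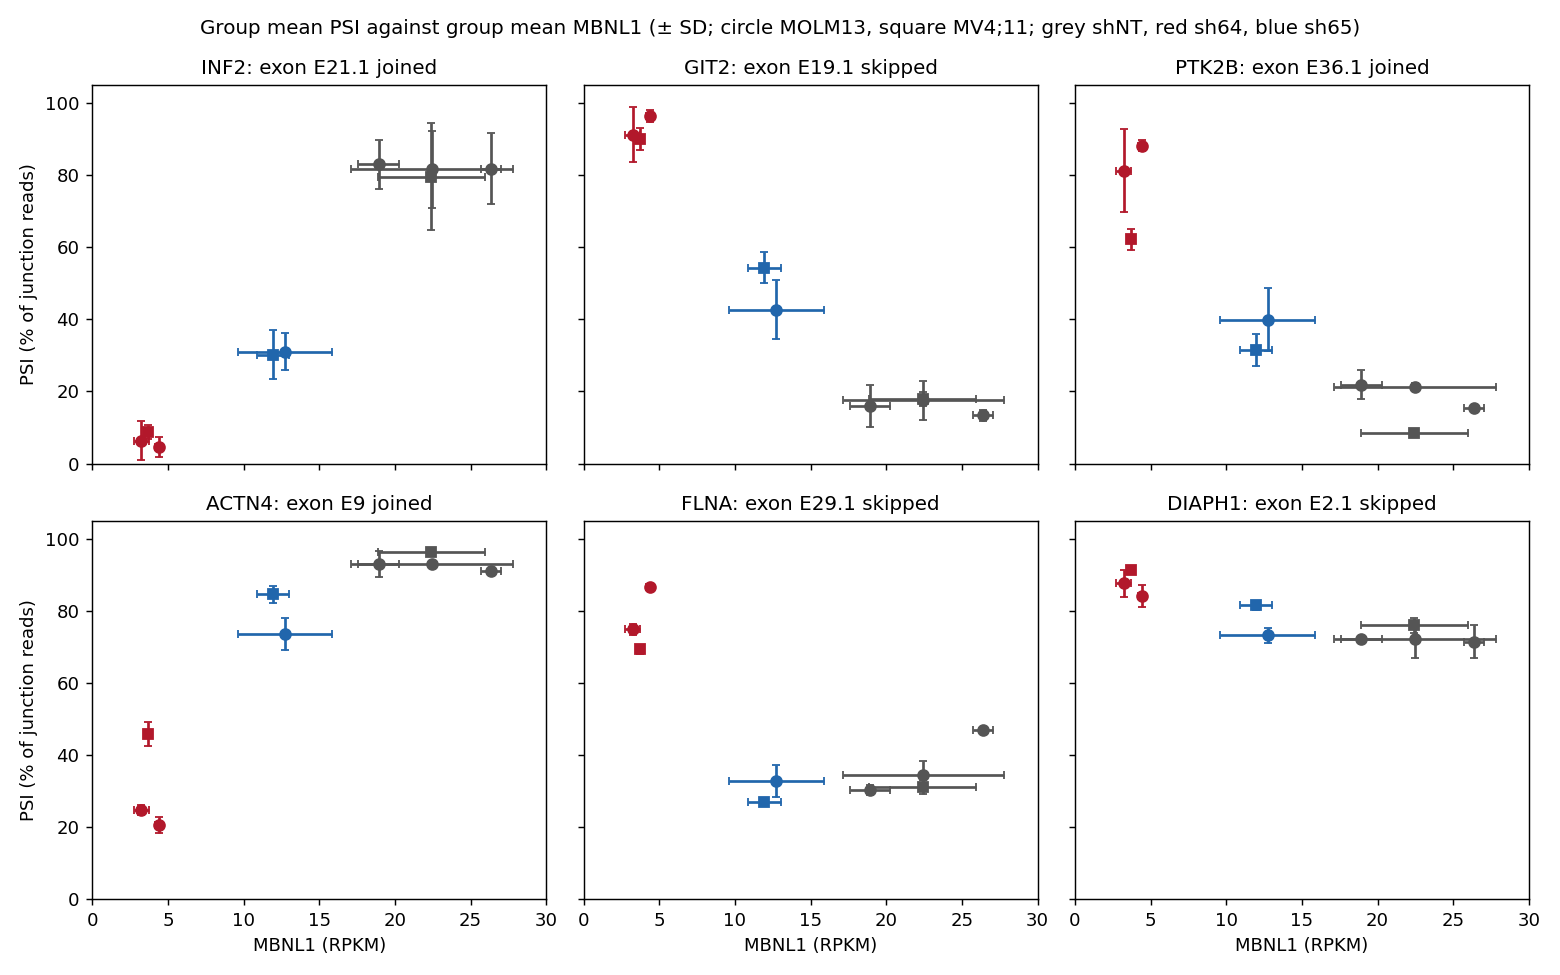
Group mean PSI in percent (vertical axis) against group mean MBNL1 in RPKM (horizontal axis) for 6 events, with SD on both axes (circles MOLM13, squares MV4;11; grey shNT, red hairpin 64, blue hairpin 65). For INF2, GIT2 and PTK2B the hairpin 65 groups lie between the others, and for FLNA they lie beside the shNT groups.

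Hairpin 64 was also set against hairpin 65 within MV4;11. The libraries are those used to choose the genes, so the PSI differences are a description and carry no p-value. MBNL1 was lower with hairpin 64 (log2 difference -1.46, SE 0.08, adjusted p = 3.28e-05, limma). Of 68 tested events, 17 were called (all events, 1.16%), in INF2, ACTN4, FLNA, PTK2B and GIT2. FLNA exon E29.1 was skipped more with hairpin 64, by 42.3 points (SE 0.846), with all 3 libraries above all 3 of hairpin 65. The 2 inclusion junctions of the exon were lower by 37.8 (SE 1.15) and 38.2 points (SE 1.23). In ACTN4 the E9 to E12.1 junction was lower by 38.6 points (SE 2.27) and the E10 to E12.1 junction higher by 26.7 points (SE 1.34). INF2 exon skipping was higher by 33.7 points (SE 1.81), GIT2 exon E19.1 skipping by 35.6 points (SE 2.94) and PTK2B exon E36.1 inclusion by 30.7 points (SE 2.94). The GIT2 acceptor E18.1 was lower by 11.0 points (SE 0.669). DIAPH1 E2.1-E4.1 stood 6.02 points lower (SE 0.208), under the size needed for a call.

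**Figure D4:**
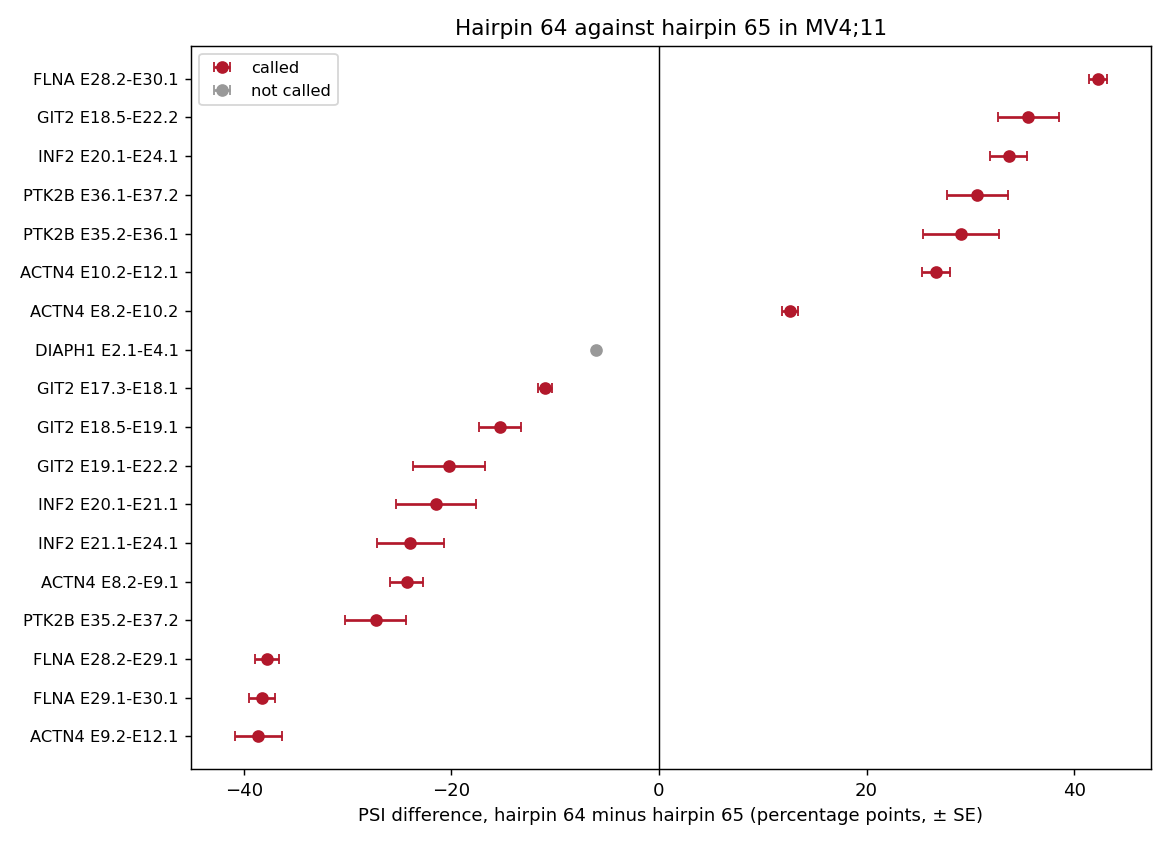
Difference in PSI between hairpin 64 and hairpin 65 in MV4;11 in percentage points (horizontal axis, points with SE) for the 17 called events (red) and DIAPH1 E2.1-E4.1 (grey, not called). FLNA exon skipping has the largest difference, at 42.3 points.

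The response to hairpin 64 was set side by side between lines and between days as an interaction. Both changes had been used in choosing the genes, so these values too are a description. Of 68 events, 3 were called between MV4;11 and MOLM13 at day 4 (all events, 0.794%), all in ACTN4. The fall of the E9 to E12.1 junction was 17.96 points smaller in MV4;11 (SE 2.104) and that of the E8.2 to E9.1 junction 20.9 points smaller (SE 2.43). The collection day of the MV4;11 libraries is not given and may differ from day 4. Between day 12 and day 4, 2 events were called (all events, 0.779%). PTK2B E35.2-E37.2 had a difference of -13.4 points (SE 3.87) and GIT2 E19.1-E22.2 of -10.6 points (SE 2.27). The days also differ in sequencing instrument. Between control MV4;11 and control MOLM13 cells of the second shNT set, 3 events were called (all events, 1.16%), all in PTK2B. PTK2B exon E36.1 was included less in MV4;11 by 13.3 points (SE 2.23), and after adjustment over all events the difference did not pass (adjusted p = 0.344, limma).

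All 8 genes were tested for expression in each comparison, as log2(RPKM + 1), and a call here required a 1.5-fold change and the same p. In the 5 knockdown comparisons the single call was INF2 at day 12 (all genes, 5.52%). The share of all genes called was 2.42% with hairpin 64 at day 4, 6.51% in MV4;11, and 3.24% and 3.63% with hairpin 65 in MOLM13 and MV4;11. These shares move with single libraries: without the third MV4;11 shNT library the called genes went from 663 to 1953 with hairpin 64 and from 370 to 1338 with hairpin 65, and without 1 of the second-set shNT libraries from 329 to between 157 and 904. With same-numbered libraries blocked, the day-4 count went from 249 to 729. INF2 stood at 10.4, 10.2 and 9.87 RPKM with shNT at day 12 and at 6.64, 5.82 and 5.504 RPKM with hairpin 64, without overlap. At day 4 it stood at 8.45, 10.5 and 21.5 against 5.70, 5.92 and 20.4 RPKM, lower within each same-numbered pair. In MV4;11 shNT gave 2.99, 3.28 and 6.06 RPKM and hairpin 64 gave 4.75, 4.02 and 4.26 RPKM, which overlap through the third shNT library.

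Per length, FLNA was the highest of the genes, with group means of 213 to 325 RPKM, followed by ACTN4 at 104 to 150 RPKM and PTK2B at 73.9 to 114 RPKM. DIAPH1 averaged 41.7 to 95.3, ACTN1 32.7 to 67.3, ADD1 12.3 to 17.9 and GIT2 7.75 to 10.3 RPKM. INF2 averaged 4.11 to 13.5 RPKM, and its range overlaps that of GIT2 and ADD1. PTK2B was above all of its controls in the 3 libraries of hairpin 64 in each of the 3 comparisons, at 124 to 137% of the control mean, without a call. With hairpin 65 the same held in MV4;11 (123%), while in MOLM13 PTK2B overlapped its controls (106%). In MV4;11 ACTN4 was also above all of its controls, at 144% with hairpin 64 and 133% with hairpin 65, without a call. In MOLM13 ACTN4 overlapped its controls in each comparison. Other genes of the 8 had single comparisons without overlap too, and the share over all genes was not counted. ACTN1 stood at 67.5% of control with hairpin 65 in MOLM13 and 76.8% in MV4;11, and at 109 to 123% with hairpin 64.

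**Figure D5:**
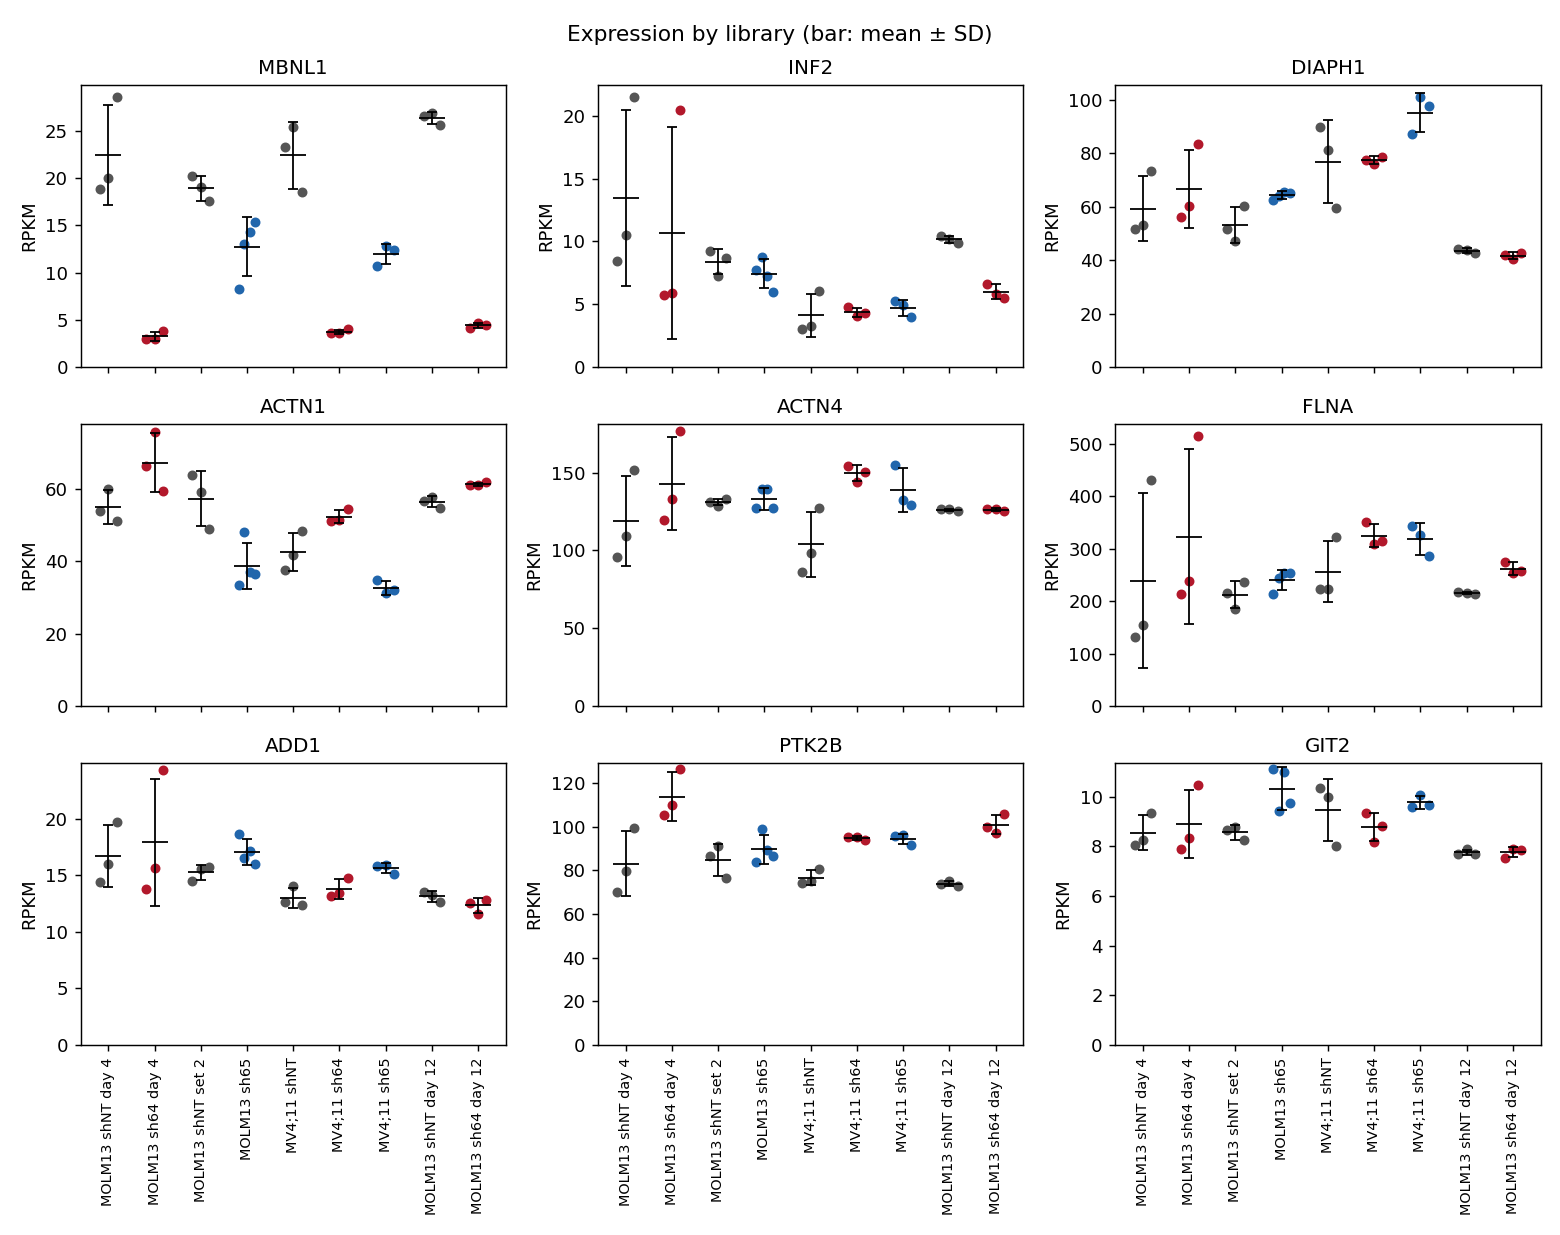
Expression in RPKM (vertical axes, from 0) of MBNL1 and the 8 genes in all 28 libraries (grey shNT, red hairpin 64, blue hairpin 65; bars mean ± SD). MBNL1 falls to 3.23 to 4.40 RPKM on average with hairpin 64, and the third day-4 libraries are the highest points of FLNA and INF2.

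Expression was not used to choose the genes. Between the hairpins in MV4;11, ACTN1 was called (all genes, 3.38%). It stood at 51.2, 51.4 and 54.6 RPKM with hairpin 64 and at 34.9, 31.3 and 32.0 RPKM with hairpin 65 (log2 difference 0.66, SE 0.07, adjusted p = 0.000537, limma). DIAPH1 was lower with hairpin 64 than with hairpin 65 (log2 difference -0.29, SE 0.07, adjusted p = 0.0225, limma), under the fold needed for a call. Its adjusted p ran up to 0.387 over the alternatives against 0.0148 for ACTN1. The DIAPH1 means were 77.5 RPKM with hairpin 64, 95.3 with hairpin 65 and 76.9 with shNT, so the hairpin 64 mean was near that of shNT. INF2 was lower in control MV4;11 than in control MOLM13 cells (log2 difference -0.92, SE 0.23, adjusted p = 0.0303, limma; all genes called, 14.2%), with 4.11 ± 1.70 against 8.39 ± 1.02 RPKM (SD, n = 3 each). This call was lost without the first or the second MV4;11 shNT library, at log2 differences of -0.77 (adjusted p = 0.120) and -0.82 (adjusted p = 0.130). Neither interaction gave an expression call among the 8 genes (0.653% of all genes between lines and 0.397% between days), and none had an unadjusted p under 0.05.

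The other genes of the pathway came from a list of 126 formins, crosslinkers, membrane skeleton, focal adhesion, actin assembly and related signalling genes. Of their tested events, 19 of 459 (4.14%, all events 1.73%) were called with hairpin 64 at day 4, in 10 genes, 25 of 494 (5.06%, all events 2.34%) at day 12, in 12 genes, and 21 of 502 (4.18%, all events 1.64%) in MV4;11, in 8 genes. With hairpin 65, 15 of 470 (3.19%, all events 1.28%) were called in MOLM13 and 11 of 508 (2.17%, all events 0.866%) in MV4;11. An event called in the same direction in at least 4 of the 5 comparisons was present in 3 of the 126 genes. They include FMNL3, a formin, and ADD3, gamma-adducin. Over all genes, 146 of 66277 events were called in this way (0.22%), which is a share of events and not of genes. FMNL3 E8.1-E9.1 averaged 18.8 ± 7.60% in day-4 shNT and 94.1 ± 5.11% with hairpin 64, and 10.6 ± 8.76%, 87.9 ± 2.37% and 34.0 ± 3.97% with shNT, hairpin 64 and hairpin 65 in MV4;11 (SD, n = 3 each). ADD3 E22.1-E23.1, called in all 5, averaged 49.2 ± 13.996% and 97.4 ± 2.63% at day 4.

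Of the expression of the list, 6 of 100 tested genes rose and 1 fell with hairpin 64 at day 4 (all genes called, 2.42%), 8 of 98 rose and 5 fell at day 12 (5.52%), and 10 of 101 rose and 4 fell in MV4;11 (6.51%). With hairpin 65, 3 of 98 rose and 3 fell in MOLM13 (3.24%), and 3 of 102 rose and 2 fell in MV4;11 (3.63%). Some genes of the list were called in several comparisons, and how many of all genes were called as often was not counted. EZR, which codes for ezrin, a linker of filaments and membrane, was called lower in 4 of the 5 comparisons, with log2 differences of -0.61 to -0.90. TNS3, a tensin, and TWF1, a twinfilin that binds actin monomers, were called higher in 3 comparisons each, with log2 differences over all 5 of 0.27 to 0.82 and 0.22 to 0.81. CRK, an adaptor, was called higher in the 3 comparisons of hairpin 64 at 0.63 to 0.64 and stood at -0.01 and -0.11 with hairpin 65. FLNC, a filamin, was called higher in the 3 comparisons in which it was tested, at 0.66 to 1.14. With hairpin 64 in MOLM13 no group mean of FLNC reached 1 RPKM, so it was not tested there. Where FLNC was tested, it may have passed this filter through the knockdown group alone. A gene that passes in this way enters only where it is higher, so the 3 calls cannot count as a recurrent rise.

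The events of other genes whose PSI was most like that of INF2 exon E21.1 over the 28 libraries included those in NUMA1 (Pearson r 0.97), SRGAP2 (0.96) and YBX3 (0.95), among 56201 events measured in all libraries. The libraries share their hairpin groups, so r largely describes how far the groups lie apart. NUMA1 E27.8-E28.1 averaged 47.6% in day-4 shNT, 0.441% with hairpin 64, 17.9% with hairpin 65 in MOLM13 and 13.3% with hairpin 65 in MV4;11.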

How the data were processed

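RNA-seq of 28 cell line libraries was used, as prepared with a TruSeq kit from total RNA. Expression values were deposited by the authors as RPKM per gene, and splicing values as PSI, a fraction from 0 to 1 that the authors derived from junction reads, printed here as a percent. The submitters' processing notes name STAR and hg19, without a version for STAR. RPKM corrects for depth and length, but PSI keeps no read depth, so events of weakly expressed genes carry an unknown counting error.

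Genes were matched by Ensembl gene identifier and events by symbol, and the members and gene lists were chosen with earlier results of these data known. Samples were grouped by the labels. The study's methods state other library numbers for some groups (4 for MV4;11 shNT and hairpin 65), and the labels were followed. Differences were fitted over all events and genes with limma 3.58.1 in R 4.3.3, with Benjamini-Hochberg adjustment. Events were tested where measured in over 50% of the libraries of each group, and genes where a group mean reached 1 RPKM, on log2(RPKM + 1). The interactions compared the effect of hairpin 64 between lines or days. The tests were checked on simulated data.

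Named were the 8 genes, MBNL1, the event with the largest mean difference per gene, events called in the same direction in at least 4 comparisons, up to 10 events per other contrast with an adjusted p of 0.05 or less, the 5 events most like the INF2 event, and the genes of the pathway list that were called most often. Other events given as values were chosen after their values were seen. Some items that this rule names are not reported here. At day 4 the same-numbered libraries deviated together in expression (correlations 0.848, 0.799 and 0.882) and in splicing (0.168, 0.105 and 0.300), a hint from the data that the numbers pair them, and in the other comparisons they did not. Sequences and exon positions were read from the GRCh37 genome, on which 100 of 100 junction ends of the genes' cassette events fell on annotated exon edges.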

Additional observations from a re-analysis of the deposited data

Results flagged for a closer look

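In the 4 libraries of hairpin 65 in MOLM13, 16 events and the expression of 9 genes were checked for a library far from the others, and 2 events had one, where chance gives about 1 in 20. ACTN4 E8.2-E9.1 stood at 83.3% in 1 library against 87.4 to 87.8% in the others. Skipping of GIT2 exon E19.1 stood at 55.1% in 1 library against 38.4 to 38.8% in the others. Both values come from the same library, replicate 1, so the 2 events are not separate cases. This library also had the lowest MBNL1 of the 4, at 8.26 RPKM against 13.0, 14.3 and 15.4 RPKM. A link between these values was not tested. The response of ACTN4 to hairpin 64 differed between lines in the interaction of line and hairpin, by 20.9 points for E8.2-E9.1 and by 17.96 points for E9.2-E12.1, with a smaller fall in MV4;11, in libraries that were used to choose the gene.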

How the results depend on the processing

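Of 882 alternatives of 72 named values, 793 left the call and direction as they were, 89 lost the call and 0 reversed. With an adjusted p of 0.05 in place of the unadjusted one, called events numbered 11 instead of 20 with hairpin 64 at day 4, 0 instead of 11 with hairpin 65 in each line, 9 instead of 17 between the hairpins, and 0 instead of 3 and 2 between control lines and between days. A PSI difference over 0.2 left 1 of 3 events between lines in the response to hairpin 64, 0 between control lines and 0 between days. The arcsine scale gave 5 between control lines and 0 between days, and a spread shared over all 9 groups gave 6 and 1, and 0 instead of 1 for expression at day 12. For expression, no filter on low values gave 0 instead of 1 between control lines, and median scaling 1 instead of 0 with hairpin 65 in MOLM13.

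With same-numbered libraries as a replicate block, called events numbered 19 with hairpin 64 at day 4, where DIAPH1 E1.4-E4.1 lost its call, 19 in MV4;11 and 19 at day 12, 8 with hairpin 65 in MV4;11, 12 between the hairpins, 3 between lines and 1 instead of 2 between days. With hairpin 65 in MV4;11, INF2 E20.1-E21.1 and E20.1-E24.1 and GIT2 E19.1-E22.2 and E18.5-E19.1 lost their calls, and PTK2B E4.1-E5.1 gained a call. Between the hairpins, INF2 E20.1-E21.1, PTK2B E35.2-E36.1 and E35.2-E37.2, and GIT2 E19.1-E22.2 and E18.5-E19.1 lost theirs. The differences themselves were unchanged. The counts of called genes among the 8 were the same in the block. No paired analysis was possible for hairpin 65 in MOLM13 and for the control lines because the groups share fewer than 2 numbers.

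Leaving out 1 library at a time gave 18 to 20 events with hairpin 64 at day 4, 18 to 21 at day 12, 19 to 19 in MV4;11, 6 to 11 with hairpin 65 in MOLM13, 8 to 11 in MV4;11, 15 to 17 between the hairpins, 1 to 5 between control lines, 0 to 3 between days and 3 to 6 between lines. The 6 between lines came without the third hairpin 64 library of day 4. With hairpin 65 in MOLM13, leaving out a second-set shNT library gave 6 or 7, and leaving out the fourth hairpin 65 library 7. Among the 8 genes, called genes numbered 0 to 2 between control lines. They numbered 0 to 1 with hairpin 64 at day 4 and in MV4;11 and with hairpin 65 in MOLM13, and were unchanged in the other 5 comparisons. Junction depth is unknown, so it limits the splicing values to an extent that cannot be stated.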
